A study of Mus musculus with 40 samples.

Results

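The Period genes Per1, Per2 and Per3, the cryptochromes Cry1 and Cry2, and Ciart (also called Chrono) encode the transcriptional repressors of the mammalian circadian clock. They were chosen by name: the rows of the deposited count table whose Ensembl identifier, with its version removed, maps to these 6 symbols, 6 of 56980 genes. The choice was made with earlier results of these data known. All 6 genes passed the filter on low counts and were among the 17880 genes tested. The libraries hold polyadenylated RNA of female, wild type C57BL/6J mice, an inbred laboratory strain. The tissue label reads brain with all cell types, and the medial prefrontal cortex appears only in the series title. Treatment began on postnatal day 25 in the groups labelled adolescent and on postnatal day 55 in those labelled adult. Mice drank water (H2O) or took oral antibiotics (Abx), and received subcutaneous injections of saline or of 15 mg/kg morphine for 5 days. Each of the 8 combinations of age, drink and injection is a group of 5 libraries, and every group was injected, so no group shows untreated tissue. The antibiotics, and the hour of the day at which tissue was taken, are absent from the labels read here. The labels do not state whether each library is a mouse of its own, so p-values measure the spread between these samples, which may be technical. In bulk tissue a change in the number of cells of a type and a change in RNA per cell cannot be told apart.

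In the clock, the activators CLOCK and BMAL1 (encoded by Arntl) bind E-boxes, short DNA elements, in front of the Period and cryptochrome genes. The PER and CRY proteins accumulate, enter the nucleus together and repress that binding, and CIART represses the activators as well, so these transcripts rise and fall over the day. Per1 and Per2 are also acutely inducible, through cAMP response elements (CREs) and by glucocorticoid hormone, while D-boxes bind the activators DBP, TEF and HLF and the repressor NFIL3.

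The promoter windows of 4 of the genes are shown because they hold letter matches to E-boxes or D-boxes, elements named above. RefSeq windows, from 250 bases before to 50 bases after an annotated start site in GRCm38.p6, the assembly also known as mm10, were matched by symbol for 5 of the 6 genes. No window was matched for Per2. Capitals mark matches to the E-box CACGTG, the E-prime box CACGTT, which reads as AACGTG from the opposite strand, the CRE TGACGTCA and the D-boxes TTATGTAA and TTACGTAA, all searched on both strands.
Per1 promoter window, chr11:69098699-69098998, plus strand: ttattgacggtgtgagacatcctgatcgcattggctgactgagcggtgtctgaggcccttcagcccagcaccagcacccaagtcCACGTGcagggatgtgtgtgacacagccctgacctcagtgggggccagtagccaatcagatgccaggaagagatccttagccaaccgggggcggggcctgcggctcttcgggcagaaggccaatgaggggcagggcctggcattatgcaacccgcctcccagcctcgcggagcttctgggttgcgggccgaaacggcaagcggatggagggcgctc
Per3 promoter window, chr4:151044616-151044915, minus strand: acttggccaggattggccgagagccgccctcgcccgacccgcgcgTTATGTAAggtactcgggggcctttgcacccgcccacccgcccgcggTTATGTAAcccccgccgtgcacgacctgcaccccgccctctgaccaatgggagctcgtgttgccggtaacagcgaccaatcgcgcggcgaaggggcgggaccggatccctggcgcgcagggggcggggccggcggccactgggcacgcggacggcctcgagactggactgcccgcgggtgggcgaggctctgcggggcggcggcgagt
Cry1 promoter window, chr10:85185005-85185304, minus strand: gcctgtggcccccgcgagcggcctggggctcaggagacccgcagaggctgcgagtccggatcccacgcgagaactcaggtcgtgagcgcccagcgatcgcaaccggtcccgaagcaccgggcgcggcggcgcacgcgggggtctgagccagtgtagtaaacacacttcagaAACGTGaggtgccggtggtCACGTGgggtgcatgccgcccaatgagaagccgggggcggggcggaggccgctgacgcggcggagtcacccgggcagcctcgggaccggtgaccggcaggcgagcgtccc
Ciart promoter window, chr3:95882179-95882478, minus strand: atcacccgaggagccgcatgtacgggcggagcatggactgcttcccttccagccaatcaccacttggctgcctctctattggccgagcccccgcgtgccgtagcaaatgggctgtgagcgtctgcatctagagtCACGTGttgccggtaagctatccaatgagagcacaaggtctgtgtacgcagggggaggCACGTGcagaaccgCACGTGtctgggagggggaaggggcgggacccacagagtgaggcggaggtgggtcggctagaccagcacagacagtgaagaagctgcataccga
Per1 had 1 E-box, its first base 166 bases before the start site (position -166). Per3 had 2 D-boxes, at -205 and -158, and no E-box. Cry1 had an E-box at -60 and an E-prime box at -79, and the Cry2 window, not printed, had an E-prime box at -166. Ciart had 3 E-boxes, at -116, -58 and -44. A second Per1 start site had none of these elements. Among all 32851 windows of the table, 7.15% held the E-box, 4.68% the E-prime box, 0.938% the D-box TTATGTAA, 0.119% the D-box TTACGTAA and 1.79% the full CRE, which was in none of the members' windows. The short core TGACG, which is part of the full CRE, was found in both Per1 windows and in those of Cry1 and Cry2, and in 20.8% of all windows. AGAACA, a core of glucocorticoid response elements, was in no member's window and in 19.0% of all windows. A match is a description of the letters, not a measured site.

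Levels are given as CPM, read counts scaled to library size after TMM normalisation. The libraries held between 8.64 and 12.1 M counts, and 3 counts in a library, the limit that a count of 0 allows, correspond to 0.248 to 0.347 CPM, counting error only. The lowest count of any member in any library was 97, for Ciart. Markers of cortical neurons were abundant: 8 excitatory neuron markers summed to 6130 to 7640 CPM and 8 interneuron markers to 745 to 974 CPM in the 40 libraries, against 148 to 198 CPM for 8 striatal markers. Of 6 choroid plexus markers only Kl was tested, at 1.07 to 4.88 CPM. Astrocyte markers summed to 3740 to 6160 CPM, and replicates 5 and 4 of the adolescent H2O Saline group were the highest of all libraries for them, at 6160 and 5700 CPM. Replicate 5 was also the highest for markers of microglia (581 CPM), endothelium (389), mural cells and fibroblasts (394) and oligodendrocyte precursors (274). Replicate 4 was the highest for oligodendrocyte (2140 CPM) and interneuron markers (974). The part of these markers in the members' levels was not tested.

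Per1 (ENSMUSG00000020893.18, GRCm38 chr11:69095217-69109960, plus strand) and Cry2 (ENSMUSG00000068742.12, chr2:92403646-92434043, minus strand) were the most abundant members. Per 1 kb of exon, mean levels over the 40 libraries were 24.9 CPM for Per1 and 26.0 CPM for Cry2. Per2 (ENSMUSG00000055866.10, chr1:91415982-91459324, minus strand) averaged 8.54 CPM per kb and Ciart (ENSMUSG00000038550.11, chr3:95878503-95882251, minus strand) 8.12. Per3 (ENSMUSG00000028957.13, chr4:151003652-151044665, minus strand) averaged 6.52 CPM per kb and Cry1 (ENSMUSG00000020038.11, chr10:85131700-85185064, minus strand) 4.97. The exons of Cry2 overlap those of D930015M05Rik on the opposite strand, which had 125 to 237 counts against 1318 to 2018 for Cry2. Whether counting used the strand is not stated in the labels, so Cry2 values are uncertain to that extent.

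The members also differed in how far their level moved between groups. The highest group mean was 2.23 times the lowest for Per2, 1.95 times for Ciart, 1.77 times for Cry1, 1.57 times for Per3, 1.55 times for Per1 and 1.24 times for Cry2. For Per2, Per3, Cry1, Cry2 and Ciart, the 4 morphine groups held the 4 highest means and the 4 saline groups the 4 lowest. Per1 was the exception, because the adult Abx Saline group, at 154 ± 15.1 CPM (SD, n = 5), ranked between morphine groups. How many of all genes tested have their groups in such an order was not counted. Groups next to each other in these orders had overlapping ranges for every member. The step from the lowest morphine mean to the highest saline mean exceeded the larger of the pair of SDs for Per2 (59.2 ± 6.07 against 41.7 ± 9.62 CPM) and Cry1 (17.7 ± 2.42 against 14.1 ± 1.04 CPM), and lay within it for Per3, Cry2 and Ciart.

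**Figure D1:**
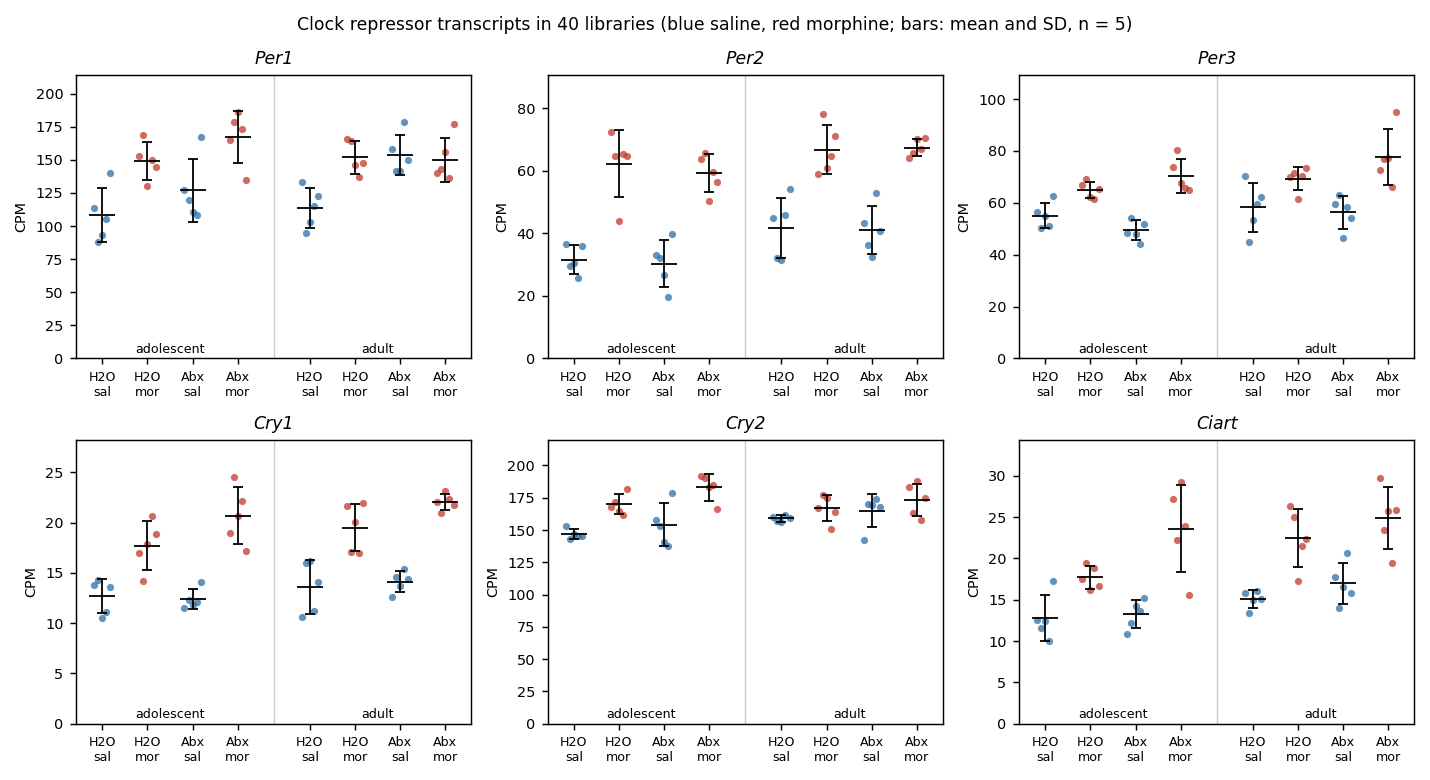
Level of each of the 6 genes in the 40 libraries. The y axis is CPM on a linear scale from 0, the x axis the 8 groups by age, drink (H2O or Abx) and injection (sal, mor); points are libraries, blue for saline and red for morphine, and bars give the mean and SD of 5 libraries. For Per2 every red point lies above every blue point of the same age and drink.

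Morphine against saline was compared in 4 sets of 10 libraries that share none, at each age on each drink, to ask whether the response to the opioid is the same with and without antibiotics. A gene was called at an adjusted p under 0.05 (edgeR's quasi-likelihood test, Benjamini-Hochberg over all 17880 genes tested). Higher with morphine were 2 of 6 members in adolescents on water, Per2 and Cry1, where 0.319% of all genes tested were called in either direction. All 6 rose in adolescents on antibiotics, where 2.92% of genes were called. In adults on water 3 of 6 rose, Per2, Cry1 and Ciart, where 0.475% were called. In adults on antibiotics 4 of 6 rose, Per2, Per3, Cry1 and Ciart, where 0.213% were called. No member fell. The median log2 fold change of the 6 members was 0.47, 0.63, 0.47 and 0.51 in the same order, against medians of 0, 0, 0.01 and 0 over all genes tested. An unadjusted p under 0.05 (edgeR) was reached by 6, 6, 5 and 4 members in that order. Of all 17880 genes tested, 2400, 2912, 1978 and 1258 did so. Per2 and Cry1 were called in all 4 comparisons. The number of calls on each drink is no test of a difference between drinks. That test, given with the antibiotics comparisons, called no member at either age. Because the members were chosen with earlier results of these data known, these counts and medians are a description.

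**Figure D2:**
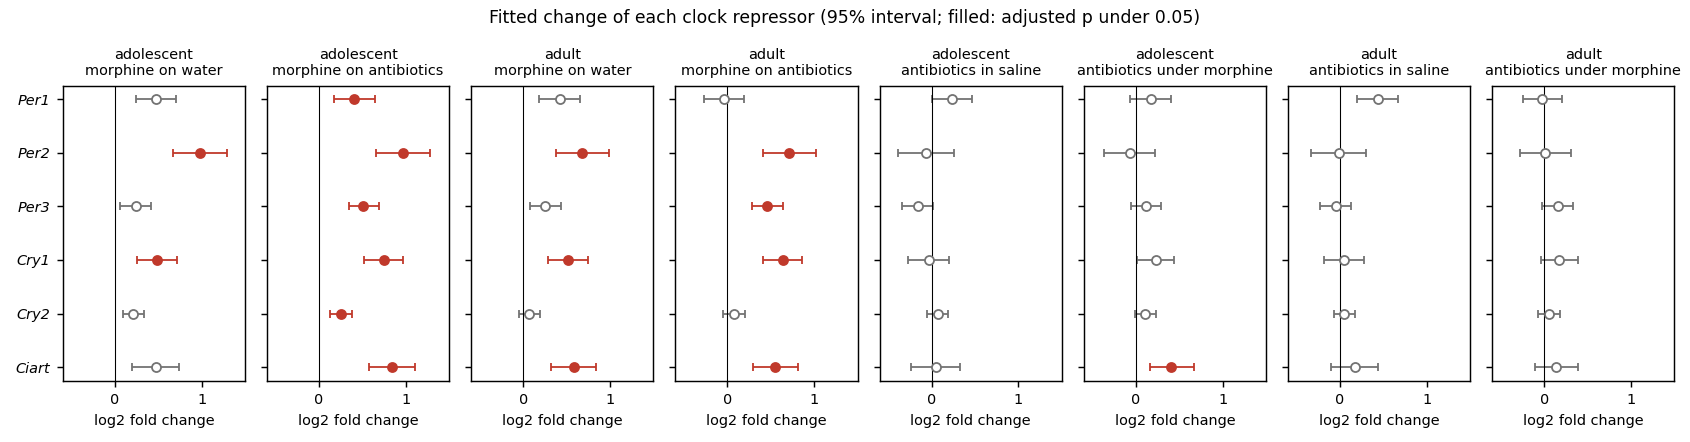
Fitted log2 fold change (x axis) of each member (y axis) in the 4 morphine and the 4 antibiotics comparisons, 1 panel each. Circles are edgeR estimates, bars their 95% intervals, and filled red circles have an adjusted p under 0.05; Per2 and Cry1 are filled in all 4 morphine panels, and Ciart under morphine in adolescents is the only filled circle in the antibiotics panels.

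Per2, a Period gene needed for stable daily rhythm, had the largest fitted change of the 6 members in each of these comparisons. In adolescents on water it read 36.5, 29.4, 30.6, 25.7 and 35.9 CPM in the 5 saline libraries and 72.5, 64.8, 44, 65.2 and 64.7 CPM in the 5 morphine libraries. The lowest morphine library, replicate 3, still lay above all of the saline libraries. The change was 1.97-fold (log2 fold change 0.98 ± 0.15 SE, adjusted p = 0.000403, edgeR). On antibiotics the saline libraries read 33.1, 32, 26.5, 19.7 and 39.8 CPM and the morphine libraries 63.6, 65.8, 50.4, 59.5 and 56.5 CPM. The groups were again apart, with a 1.96-fold rise (0.97 ± 0.15, adjusted p = 0.000302, edgeR). Both adolescent calls held without any single library.

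In adults the fitted folds of Per2 were 1.61 on water and 1.64 on antibiotics. On water the saline libraries read 44.9, 32.1, 31.6, 45.7 and 54 CPM and the morphine libraries 58.9, 78.1, 60.8, 64.8 and 71.1 CPM (log2 fold change 0.68 ± 0.15, adjusted p = 0.0228, edgeR). On antibiotics they read 43.2, 36.3, 32.5, 52.9 and 40.8 CPM with saline and 63.9, 65.6, 70.2, 67 and 70.4 CPM with morphine (0.71 ± 0.15, adjusted p = 0.0333, edgeR). No morphine library overlapped the saline range on either drink, and the adult Abx Morphine group was the tightest of the 8, with an SD of 2.85 CPM. These adult calls depended on single libraries. On water the call was lost on removal of any of 6 of its 10 libraries (all but H2O Saline replicates 1 and 5 and H2O Morphine replicates 3 and 4), with adjusted p up to 0.129. On antibiotics it was lost without any of 8 (all but Abx Saline replicate 4 and Abx Morphine replicate 1), with adjusted p up to 0.15.

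Per1, the Period gene best known for rapid induction, rose in 1 of the 4 comparisons. In adolescents on antibiotics it read 127, 120, 111, 108 and 167 CPM with saline and 165, 179, 186, 173 and 135 CPM with morphine. The ranges overlapped because saline replicate 5 lay above morphine replicates 1 and 5, and the fold was 1.32 (log2 fold change 0.40 ± 0.11, adjusted p = 0.0455, edgeR). The call was lost on removal of any of 8 of its 10 libraries, all but replicate 5 of both groups, with adjusted p up to 0.141. It was also lost with no filter on low counts (adjusted p = 0.0862) and when only the 2 compared groups were fitted (0.128). For adolescents on water the values were 114, 88, 92.9, 105 and 140 CPM against 153, 169, 130, 150 and 145 CPM, with a similar fitted change that was not called (0.47 ± 0.12, adjusted p = 0.0606, edgeR). DESeq2 called it, with an adjusted p of 0.0102.

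In adults Per1 was not called on either drink. On water it read 133, 95, 103, 115 and 123 CPM with saline and 166, 164, 146, 137 and 148 CPM with morphine. The groups did not overlap, but the change was not called (log2 fold change 0.42 ± 0.12, adjusted p = 0.0961, edgeR), while DESeq2 gave an adjusted p of 0.0296 and edgeR on the 2 groups alone 0.0105. On antibiotics the saline libraries read 158, 142, 142, 179 and 150 CPM, and the morphine libraries read 140, 143, 156, 136 and 177 CPM. The groups covered almost the same range (log2 fold change -0.04 ± 0.11, 95% interval -0.27 to 0.19). The test of the difference between drinks is given with the antibiotics comparisons.

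Per3, the Period member regarded as least essential for rhythm, rose on antibiotics at both ages. In adolescents it read 48.5, 54.3, 47.8, 44.2 and 52 CPM with saline and 73.9, 80.4, 67.6, 65.6 and 65 CPM with morphine, 1.43-fold higher (log2 fold change 0.51 ± 0.09, adjusted p = 0.000349, edgeR). In adults it read 59.6, 62.9, 46.3, 58.3 and 54.2 CPM against 72.7, 76.8, 77.1, 66 and 95.2 CPM, 1.38-fold higher (0.46 ± 0.09, adjusted p = 0.0054, edgeR). Saline and morphine libraries were apart at both ages. The adolescent call held without any single library, and the adult call was lost only without adult Abx Morphine replicate 5, the highest library (adjusted p = 0.0581). The Per3 changes on the 2 drinks were not shown to differ. The interaction was 0.28 ± 0.13 in adolescents (adjusted p = 0.247, edgeR) and 0.21 ± 0.12 in adults (adjusted p = 0.787, edgeR). On water Per3 was not called at either age. The log2 fold change there was 0.24 ± 0.09 in adolescents (95% interval 0.06 to 0.41, adjusted p = 0.249, edgeR). For adults it was 0.25 ± 0.09 (95% interval 0.08 to 0.43, adjusted p = 0.207, edgeR). The morphine libraries ranged from 61.4 to 69 CPM in adolescents, against 50.4 to 62.7 with saline, and from 61.6 to 73.3 CPM in adults, against 45 to 70.5.

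Cry1, which encodes the strongest repressor among the cryptochromes, rose in all 4 comparisons from a low level. In adolescents on water it read 13.8, 14.3, 10.5, 11.1 and 13.6 CPM with saline and 17, 14.2, 17.9, 20.7 and 18.9 CPM with morphine. The groups touched at 14.3 and 14.2 CPM, and the fold was 1.4 (log2 fold change 0.49 ± 0.11, adjusted p = 0.0351, edgeR). This call was lost when only the 2 groups were fitted (adjusted p = 0.165) and on removal of any of 7 of its 10 libraries (all but H2O Saline replicates 1 and 2 and H2O Morphine replicate 2), with adjusted p up to 0.137. On antibiotics the libraries read 11.5, 12.3, 11.8, 12.1 and 14.1 CPM with saline and 19, 24.5, 20.7, 22.1 and 17.2 CPM with morphine. There the groups were apart, the fold was 1.68 (0.75 ± 0.11, adjusted p = 4.01e-05, edgeR), and no single library ended the call.

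In adults Cry1 on water read 10.6, 16, 16.2, 11.2 and 14.1 CPM with saline and 21.6, 17.1, 20.1, 17 and 21.9 CPM with morphine, 1.43-fold higher (log2 fold change 0.52 ± 0.11, adjusted p = 0.0151, edgeR). On antibiotics it read 12.6, 14.6, 13.7, 15.4 and 14.4 CPM against 22, 20.9, 23.1, 22.3 and 21.7 CPM, 1.56-fold higher (0.64 ± 0.11, adjusted p = 0.00125, edgeR). Saline and morphine libraries were apart on both drinks, by less than 1 CPM on water and by more than 5 CPM on antibiotics. The call on antibiotics held without any single library. The call on water was lost without any 1 of H2O Saline replicates 1 and 4 and H2O Morphine replicates 1 and 5, with adjusted p up to 0.114, and when only the 2 groups were fitted (0.0559).

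Cry2, the other cryptochrome and the member with the smallest ratio between group means, was called in 1 of the 4 comparisons, in adolescents on antibiotics. It read 158, 153, 141, 138 and 179 CPM with saline and 192, 190, 183, 185 and 166 CPM with morphine, 1.19-fold higher (log2 fold change 0.25 ± 0.06, adjusted p = 0.0115, edgeR). The ranges overlapped through replicate 5 of both groups, and the call was lost without Abx Saline replicate 4 (adjusted p = 0.0615). On water, the adolescent saline libraries read 153, 143, 147, 145 and 145 CPM and the morphine libraries 168, 172, 165, 162 and 182 CPM. Those groups were apart, yet the change was not called (0.21 ± 0.06, adjusted p = 0.129, edgeR). The adolescent changes on the 2 drinks were not shown to differ (interaction 0.04 ± 0.09, unadjusted p = 0.616, adjusted p = 0.834, edgeR). In adults the log2 fold change was 0.07 ± 0.06 on water (adjusted p = 0.723) and 0.07 ± 0.06 on antibiotics (adjusted p = 0.892, edgeR), with 95% intervals that ended at 0.19 and 0.20, and the ranges overlapped on both drinks.

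Ciart, the CLOCK and BMAL1 repressor outside both families, rose in 3 of the 4 comparisons. In adolescents on antibiotics it read 10.9, 12.2, 14.3, 13.7 and 15.2 CPM with saline and 27.2, 22.2, 29.3, 23.9 and 15.6 CPM with morphine. The groups were apart, narrowly so at morphine replicate 5, and the fold was 1.79 (log2 fold change 0.84 ± 0.13, adjusted p = 9.73e-05, edgeR). No single library ended that call. On water, adolescent libraries read 12.6, 11.6, 12.4, 10 and 17.3 CPM against 17.5, 19.5, 16.2, 18.8 and 16.7 CPM. Saline replicate 5 reached into the morphine range, and the change was not called (0.47 ± 0.14, adjusted p = 0.122, edgeR), although it was with no filter on low counts (adjusted p = 0.0112).

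In adults Ciart on water read 15.8, 13.4, 15, 16.1 and 15.1 CPM with saline and 26.3, 25, 17.3, 21.5 and 22.3 CPM with morphine, 1.49-fold higher (log2 fold change 0.58 ± 0.13, adjusted p = 0.0222, edgeR). On antibiotics it read 17.7, 14, 16.5, 20.7 and 15.8 CPM against 29.7, 23.4, 25.7, 19.5 and 25.9 CPM, 1.46-fold higher (0.55 ± 0.13, adjusted p = 0.0464, edgeR). The groups were apart on water and overlapped on antibiotics, where morphine replicate 4 read below saline replicate 4. On water the call was lost without any of 7 libraries (all but H2O Saline replicate 1 and H2O Morphine replicates 3 and 4), with adjusted p up to 0.132. On antibiotics it was lost without any of 8 (all but replicate 4 of both groups), with adjusted p up to 0.19.

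Few cell type markers were called in these 4 comparisons. In adolescents on antibiotics, Cux2 and Ppp1r1b, markers of excitatory and striatal neurons, were higher and the endothelial marker Tek was lower, named because they were the only markers called in that comparison. No marker was called in adults. The summed level of the 8 oligodendrocyte markers did separate the adult water groups, at 952 to 1070 CPM with saline and 1120 to 1530 CPM with morphine. On antibiotics it ranged from 810 to 1300 CPM with saline and from 792 to 1540 CPM with morphine. The part of these markers in the members' changes was not tested.

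Other genes of the clock were described from 5 lists of 27 genes, all of which were tested. With morphine 6 of the 27 rose and 1 fell in adolescents on water, 7 rose and 1 fell in adolescents on antibiotics, 7 rose and 0 fell in adults on water, and 4 rose and 1 fell in adults on antibiotics. Of all genes tested, 0.319%, 2.92%, 0.475% and 0.213% were called in either direction, in the same order. The median log2 fold change of the 27 lay between 0.05 and 0.10 in the 4 comparisons. For adolescents on water, 3 of the 27 were called when only the 2 groups were fitted, and 4 without H2O Morphine replicate 4.

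Among the 4 activators, Arntl was the 1 that changed, in the direction opposite to the repressors. It fell by 0.32 ± 0.07 on the log2 scale in adolescents on water (adjusted p = 0.0216, edgeR), by 0.45 ± 0.07 in adolescents on antibiotics (adjusted p = 0.000112) and by 0.42 ± 0.07 in adults on antibiotics (adjusted p = 0.00125). The first of these calls was lost without any 1 of adolescent H2O Saline replicate 3 and H2O Morphine replicates 1 and 4 (adjusted p up to 0.0573), with no filter (0.0667) and in the fit of the 2 groups (0.0877). In adults on water the Arntl log2 fold change was -0.20 and not called. Clock itself was not called in any of the 4.

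Among factors that bind D-boxes, Dbp, Tef and Hlf were called in all 4 comparisons, and Nfil3, which represses at the same element, in none. Dbp log2 fold changes were 0.72 ± 0.09 and 0.58 ± 0.09 in adolescents on water and on antibiotics, and 0.58 ± 0.09 and 0.65 ± 0.09 in adults. Those of Tef were 0.32 ± 0.05, 0.38 ± 0.05, 0.28 ± 0.05 and 0.29 ± 0.05, and those of Hlf 0.33 ± 0.07, 0.46 ± 0.07, 0.49 ± 0.07 and 0.37 ± 0.07, in the same order. Dbp and Tef kept every call without any single library. The Hlf call in adolescents on water was lost without any 1 of H2O Saline replicate 5 and H2O Morphine replicates 4 and 5 (adjusted p up to 0.126) and in the fit of the 2 groups (0.13).

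Bhlhe40 and Bhlhe41 encode repressors that compete for E-boxes. Bhlhe41 rose in all 4 comparisons, by 0.40 ± 0.08 to 0.51 ± 0.08 on the log2 scale in adolescents and by 0.51 ± 0.08 on water and 0.38 ± 0.08 on antibiotics in adults. Its call in adolescents on water was lost without any of 5 libraries (H2O Saline replicates 1 and 3 and H2O Morphine replicates 1, 3 and 4, adjusted p up to 0.0807), and that in adults on antibiotics without any of 6 (all but Abx Saline replicate 3 and Abx Morphine replicates 1, 2 and 3, adjusted p up to 0.14). In the fit of the 2 groups both were lost as well (adjusted p = 0.0752 and 0.0892). Bhlhe40 rose on water, by 0.41 ± 0.07 in adolescents and 0.40 ± 0.07 in adults, and was not called on antibiotics, at 0.10 and 0.08. The test of a difference between drinks called neither Bhlhe gene in adolescents and 0 genes in adults, so no such difference was shown. Of the nuclear receptors, Nr1d2, which encodes the repressor REV-ERB beta, rose in both adolescent comparisons (0.36 ± 0.07 and 0.38 ± 0.07) and in adults on water (0.40 ± 0.07). Rora, an activator of Arntl, was called in 1 of the 4, in adults on water (0.54 ± 0.13, adjusted p = 0.0354, edgeR), a call that was lost without any of 8 libraries (all but H2O Saline replicate 1 and H2O Morphine replicate 4, adjusted p up to 0.136).

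Of 12 genes whose products modify PER and CRY proteins, 2 were called, both in adolescents on antibiotics. There 2.92% of all genes tested were called. Csnk1e, a kinase of PER proteins, was higher by 0.21 ± 0.05 on the log2 scale (adjusted p = 0.0202, edgeR) and Usp2, a deubiquitinase, by 0.22 ± 0.06 (adjusted p = 0.0378). With no filter on low counts neither was called (adjusted p = 0.0904 and 0.0743), and in the fit of the 2 groups Usp2 was not (0.0701). Leaving out any 1 of Abx Saline replicates 3 and 4 and Abx Morphine replicates 2 and 3 ended the Csnk1e call (adjusted p up to 0.0804), and any of 8 libraries, all but Abx Saline replicate 1 and Abx Morphine replicate 5, the Usp2 call (up to 0.163).

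**Figure D3:**
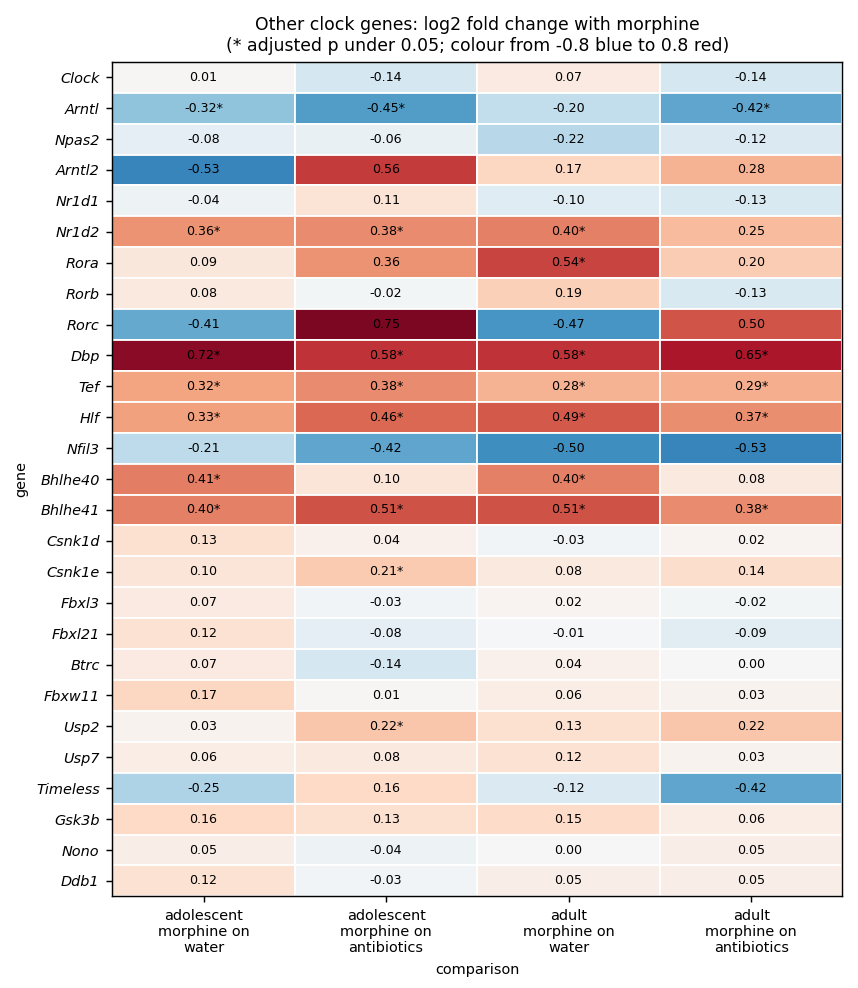
Log2 fold change with morphine of 27 other clock genes (y axis) in the 4 comparisons (x axis). Each cell prints the edgeR estimate, coloured from blue (-0.8) to red (0.8), with a star at an adjusted p under 0.05; Dbp, Tef, Hlf and Bhlhe41 carry 4 stars each, and Arntl is the only gene with a star in blue.

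Genes induced by the signals that act on Per1 and Per2 were counted beside them, in lists chosen with earlier results of these data known. Of 17 activity-regulated and CREB target genes, 6 fell with morphine in adolescents on water, 7 in adolescents on antibiotics, 12 in adults on water and 4 in adults on antibiotics, and none rose, with median log2 fold changes of -0.45, -0.63, -0.78 and -0.44. Over all genes tested, 0.319%, 2.92%, 0.475% and 0.213% were called in either direction, in the same order. Btg2 and Dusp1, which encode an antiproliferative factor and a MAP kinase phosphatase, fell by 1.99 ± 0.19 and 1.18 ± 0.15 on the log2 scale in adolescents on water. In adults on antibiotics Nptx2, a synaptic pentraxin, fell by 0.49 ± 0.10. Fewer were called without some libraries. The count was 3 for adolescents on water without H2O Morphine replicate 1 or 2 and in the fit of the 2 groups, and 6 or 7 for adults on water without any 1 of H2O Saline replicates 4 and 5 and H2O Morphine replicates 1, 3 and 5. For adults on antibiotics it was 0 to 2 without any of 8 libraries, all but Abx Saline replicate 3 and Abx Morphine replicate 5. Leaving out Abx Morphine replicate 2 or 3 ended the Nptx2 call in adults on antibiotics (adjusted p up to 0.0529, edgeR).

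Of 15 glucocorticoid-responsive genes, the called members moved in both directions. Adolescents on water had 0 higher and 1 lower, and those on antibiotics 2 higher and 2 lower. In adults 0 rose and 1 fell on water, and 1 rose and 1 fell on antibiotics. The shares of all genes tested that were called were 0.319%, 2.92%, 0.475% and 0.213%, in the same order. Fkbp5, a chaperone induced by the glucocorticoid receptor, rose by 0.77 ± 0.11 on the log2 scale in adolescents on antibiotics (adjusted p = 3.83e-05, edgeR) and by 0.49 ± 0.11 in adults on antibiotics (adjusted p = 0.0358), and Cdkn1a, a cell cycle inhibitor, fell in all 4 comparisons, by 0.48 ± 0.10 to 0.64 ± 0.10 in adolescents. With no filter on low counts, 7 genes of this list were called in adolescents on antibiotics, 4 in adults on antibiotics and 2 in adolescents on water. The adult Fkbp5 call was lost without any of 6 libraries (all but Abx Saline replicate 5 and Abx Morphine replicates 1, 3 and 4, adjusted p up to 0.213), and the Cdkn1a call in adolescents on water without H2O Saline replicate 4 or H2O Morphine replicate 1 or 5 (up to 0.0769).

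Antibiotics against water were compared at each age, with saline and under morphine, to ask whether oral antibiotics alone went with other levels. These comparisons share their groups with the morphine comparisons, so their results are not independent of them. With saline no member was called at either age. In adolescents 0.0391% of all genes tested were called. No member reached an unadjusted p under 0.05 there, which 1744 of 17880 genes did. In adults 0.0503% were called, and 1803 of 17880 genes had an unadjusted p under 0.05. Per1 was the 1 member among them. Its 5 Abx Saline libraries, from 142 to 179 CPM, lay above the 5 H2O Saline libraries, from 95 to 133 CPM (log2 fold change 0.44 ± 0.12, adjusted p = 0.138, edgeR), and DESeq2 called it (adjusted p = 0.0284). The adolescent Per1 estimate in saline was 0.23 ± 0.12 (unadjusted p = 0.0531, adjusted p = 0.518, edgeR). For the other 5 members the estimates in saline lay between -0.16 for Per3 in adolescents and 0.17 for Ciart in adults.

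Under morphine, Ciart was the 1 member higher with antibiotics in adolescents, where 7.56% of all genes tested were called. It read 17.5, 19.5, 16.2, 18.8 and 16.7 CPM on water and 27.2, 22.2, 29.3, 23.9 and 15.6 CPM on antibiotics. Of the antibiotics libraries 4 lay above all those on water and replicate 5 lay below them, with a 1.33-fold difference (log2 fold change 0.41 ± 0.13, adjusted p = 0.0354, edgeR). The call was lost on removal of any of 7 of its 10 libraries (all but H2O Morphine replicates 2 and 4 and Abx Morphine replicate 5), with adjusted p up to 0.132. Cry1 had an unadjusted p of 0.0419 there and was not called (0.23 ± 0.11, adjusted p = 0.196). Among the markers in this comparison, Neurod6 of excitatory neurons, Aqp4 of astrocytes and C1qa of microglia were lower and Ppp1r1b of striatal neurons higher, named because they were the only markers called. Their part in the Ciart difference was not tested. In adults under morphine 0.0280% of genes were called and no member was, by edgeR or by DESeq2, and the smallest unadjusted p of a member was 0.073 (Per3).

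In adolescents under morphine, 7.56% of all genes tested were called with antibiotics against water. Of the other clock genes, 4 of 27 were higher there and none lower. They were Arntl2, a paralog of Arntl (log2 fold change 0.65 ± 0.19), Nr1d1, which encodes REV-ERB alpha (0.21 ± 0.06), Bhlhe41 (0.26 ± 0.08) and Usp2 (0.25 ± 0.06). The Usp2 call held without any single library. The Nr1d1 call was lost without Abx Morphine replicate 2 (adjusted p = 0.0645, edgeR), the Arntl2 call without any of 5 libraries (H2O Morphine replicates 2 and 5 and Abx Morphine replicates 1, 2 and 3, up to 0.118) and the Bhlhe41 call without any of 7 (all but H2O Morphine replicates 3 and 4 and Abx Morphine replicate 5, up to 0.106).

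Whether morphine acted differently on the 2 drinks was tested as an interaction, the morphine log2 fold change on antibiotics minus that on water. No member was called at either age by edgeR or DESeq2. In adolescents 1.24% of all genes tested were called, and Per3 had the smallest p among the members (0.28 ± 0.13, unadjusted p = 0.0316, adjusted p = 0.247, edgeR). The Ciart estimate there was larger but less precise, at 0.37 ± 0.19 (95% interval -0.01 to 0.75). For Per2 the estimate was -0.01 ± 0.22, with a 95% interval from -0.45 to 0.43. In adults 0% of genes were called, and the Per1 estimate was -0.46 ± 0.16 (95% interval -0.79 to -0.13, unadjusted p = 0.00802, adjusted p = 0.564, edgeR). The adult Per1 changes on the 2 drinks were therefore not shown to differ. Of the 27 other clock genes 1 was called in adolescents, Arntl2, a call lost without any of 10 of its 20 libraries (adjusted p up to 0.106, edgeR).

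Age was compared by setting adult against adolescent libraries of the same drink and injection. No member was called in any of the 4 comparisons, in which 0.257% of genes (water, saline), 5.97% (antibiotics, saline), 0.928% (water, morphine) and 1.04% (antibiotics, morphine) were called. At an unadjusted p under 0.05 (edgeR) were 1, 4, 1 and 0 members, against 1788, 3612, 2549 and 2644 of the 17880 genes tested. DESeq2 called 1 member in 1 of these comparisons, Per2 with antibiotics and saline (adjusted p = 0.0348). With saline all 6 estimates were higher in adults on both drinks, with medians of 0.11 and 0.24, against 0 and 0.01 over all genes. With morphine 5 of 6 were higher on water and 4 of 6 on antibiotics. The members were read in the same libraries, so their directions are not independent. Per2 with saline averaged 31.6 ± 4.57 CPM in adolescents and 41.7 ± 9.62 CPM in adults on water (log2 fold change 0.40 ± 0.16, adjusted p = 0.358, edgeR), and 30.2 ± 7.52 against 41.1 ± 7.76 CPM on antibiotics (0.45 ± 0.16, adjusted p = 0.0897). Cry2 on water with saline read 143 to 153 CPM in adolescents and 156 to 162 CPM in adults, ranges that were apart, with an adjusted p of 0.531.

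Whether the morphine change itself differed with age was tested in the same fit, as the adult minus the adolescent log2 fold change. On water 0% of genes were called, and 1788 of 17880 genes had an unadjusted p under 0.05, no member among them. On antibiotics 0% were called, and 1151 of 17880 genes had such a p, Per1 and Cry2 among them. The Per1 estimate on antibiotics was -0.44 ± 0.16 (unadjusted p = 0.01, adjusted p = 0.665, edgeR), from 0.40 in adolescents and -0.04 in adults. That of Cry2 was -0.18 ± 0.09 (unadjusted p = 0.0437, adjusted p = 0.766). For Per2 the estimates were -0.30 ± 0.21 on water and -0.26 ± 0.21 on antibiotics, with 95% intervals from -0.73 to 0.14 and from -0.70 to 0.18. DESeq2 called no member in either.

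Between libraries of the same group, the Period genes varied together, Ciart and Cry2 varied with Per1, and no pair with Cry1 passed the test by r or rho. Deviations of log2 CPM from the group mean were correlated over the 40 libraries for all 15 pairs of members, with 100000 permutations of the libraries within groups and adjustment over the 15 pairs. Of the pairs 13 had a positive r and 5 passed an adjusted p under 0.05 by Pearson's r. Per1 and Per2 had a Pearson's r of 0.66 (permutation p = 8e-05, adjusted p = 0.0005) and a Spearman's rho of 0.67 (permutation p = 4e-05). Per1 and Per3 had an r of 0.64 (permutation p = 4e-05, adjusted p = 0.0005) and a rho of 0.66 (permutation p = 0.0001). The third Period pair, Per2 and Per3, had an r of 0.60 (permutation p = 0.0001, adjusted p = 0.0005) and a rho of 0.68 (permutation p = 1e-05, the smallest these permutations can give). The 3 Period pairs thus moved together from library to library, also within each age, where r was 0.60 to 0.75. Per1 and Ciart had an r of 0.62 (permutation p = 0.00015, adjusted p = 0.000562) and a rho of 0.63 (permutation p = 0.00011). Per1 and Cry2 had an r of 0.49 (permutation p = 0.00247, adjusted p = 0.00741) and a rho of 0.48 (permutation p = 0.00312), with r at 0.66 in adolescents and 0.27 in adults. Without the 2 libraries farthest from the median of the first gene, r was 0.61, 0.65, 0.61, 0.54 and 0.44 for these 5 pairs in the order given.

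Cry1 had an r of 0.06 with Per1 (permutation p = 0.754), -0.03 with Per2 (permutation p = 0.87) and -0.19 with Per3 (permutation p = 0.359), none of which passed. In adolescents these 3 values were 0.32, 0.27 and 0.17, and in adults -0.32, -0.38 and -0.42, a difference between ages that was not tested. The remaining pairs that did not pass had r between 0.11 (Cry1 and Ciart) and 0.41 (Per2 and Cry2, adjusted permutation p = 0.0547). By Spearman's rho, 2 of them passed, Per2 and Cry2 (rho of 0.38, adjusted permutation p = 0.0404) and Per3 and Ciart (rho of 0.40, adjusted permutation p = 0.0404, with an r of 0.37 and an adjusted permutation p of 0.0544).

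**Figure D4:**
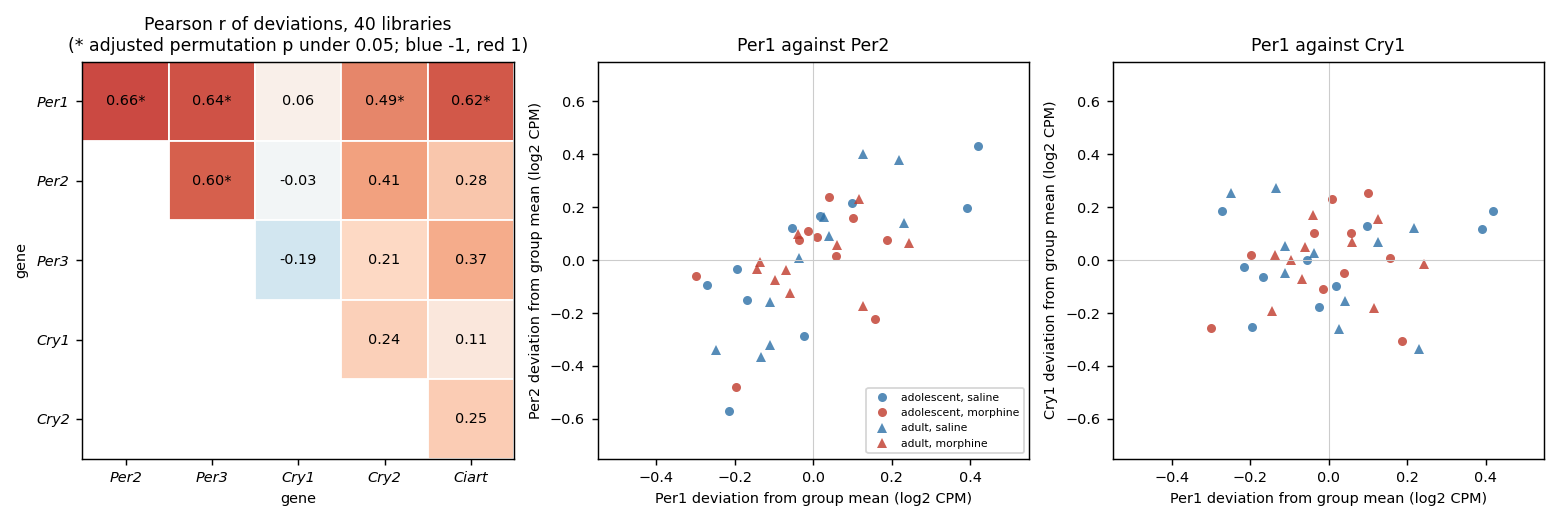
Left, Pearson's r between members of their deviations from the group mean (x and y axes are genes, blue for -1 and red for 1), with a star at an adjusted permutation p under 0.05. Middle and right, the deviations in log2 CPM of Per2 and of Cry1 (y axes) against those of Per1 (x axes) in the 40 libraries, circles for adolescents, triangles for adults, blue for saline and red for morphine; the Per2 cloud climbs (r of 0.66) and the Cry1 cloud does not (r of 0.06).

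Over all 40 libraries, group differences included, members correlated with each other at r between 0.57 (Per1 and Cry1) and 0.85 (Per2 and Per3). These values are a description: the libraries share the 8 groups, so the difference between saline and morphine enters each of them. Among 13218 other genes of at least 1 CPM on average, those most like Per2 were Dbp (r of 0.86), the kinase gene Sik2 (0.84) and Tef (0.82), and those most like Cry1 were Tef (0.86), Mthfd1l (0.82) and Hlf (0.80). For Per1 they were Mlxip (0.81), Frmd6 (0.80) and Ankrd33b (0.76), and for Per3 Tub (0.81), Syt14 (0.79) and Plekha6 (0.75). For Cry2 they were Sik2 (0.76), Ankrd33b (0.73) and Fbxo21 (0.72), and for Ciart Tub (0.82), Ankrd33b (0.78) and Usp2 (0.78). The D-box factors Dbp, Tef and Hlf were thus named beside Per2 and Cry1, and 3 other genes recurred between members: Ankrd33b for Per1, Cry2 and Ciart, Sik2 for Per2 and Cry2, and Tub for Per3 and Ciart.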

How the data were processed

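The deposited table holds whole-number read counts, not normalized, for 56980 genes in 40 libraries. The submitters' processing notes list STAR 2.7.10a, DESeq2 and the build mm10, with no role for each. The counting annotation and its strand setting: not given in the sources used here. Gene identifiers were matched without version to a GENCODE annotation of GRCm38 (52073, or 91.4%; with version 35 matched, so exon lengths and gene bounds may differ slightly from those counted). All 6 members matched.

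Counts were tested with edgeR 4.0.16 in R 4.3.3: filterByExpr (minimum count 10, minimum total 15; 17880 genes, 99.75% to 99.82% of counts), TMM, and a robust quasi-likelihood fit with 1 coefficient per group over all 40 libraries (biological coefficient of variation 9.14%). Each of 16 comparisons was a two-sided contrast, with Benjamini-Hochberg adjustment over the genes tested. The SE is the log2 fold change divided by the square root of F. CPM, log2 CPM (prior count 2) and the within-group permutations were computed from the deposited counts with Python 3.11.15 and scipy 1.17.1. The fit was checked on simulated counts.

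The 6 members are named whatever their p. Other clock genes are named for at most 3 called members per list and comparison, smallest p first, inducer genes for at most 2, and the 3 coding genes most like each member. Members and lists were chosen with earlier results of these data known. Alternatives were RLE size factors, no filter, at least 1 CPM in 5 libraries, DESeq2 1.42.0 on all genes, only the compared groups, a replicate block, and leaving out each library. Pairs of libraries within a group were compared for duplicates, and none was found. The result of 1 marker gene is not reported here.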

Additional observations from a re-analysis of the deposited data

Results flagged for a closer look

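In 2 of 48 checks of a member within a group of 5 libraries, 1 library stood far from the others, its gap to the nearest library divided by the group's range being above the Dixon limit for 5 samples. Chance gives this in about 1 of 20 such checks. Per2 in the adolescent H2O Morphine group was lowest in replicate 3, at 44 CPM with the next library at 64.7 CPM (gap over range 0.727). Cry2 in the adult Abx Saline group was lowest in replicate 1, at 142 CPM with the next at 168 CPM (gap over range 0.824). The Per2 call in adolescents on water held without the first of these libraries, and Cry2 was called in no comparison that used the second.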

How the results depend on the processing

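Of 576 values of single members under other settings, 561 kept their direction and side of the threshold, 6 lost and 7 gained a call, and 2 changed sign. The number of members called moved in 5 cases by over 1.5 times. With the replicate block, antibiotics against water in adolescents under morphine gave 0 calls (Ciart, adjusted p = 0.054) and age in antibiotics with saline gave 1 (Per2, 0.039). With only the compared groups, morphine in adolescents on water gave 1. With DESeq2, antibiotics in adult saline gave 1 (Per1) and age in antibiotics with saline 1 (Per2). The block also ended the Ciart call in adults on antibiotics (0.0857), and changed no other member's call. Replicate numbers did not pair the libraries: same-numbered libraries correlated at -0.18 to 0.14 in adolescents and -0.09 to 0.23 in adults (median 0.01 at both ages). Fits of fewer groups have fewer samples; for the other settings the cause was not tested.

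Leaving out 1 library gave 1 to 3 members called for morphine in adolescents on water, 0 to 3 in adults on water, 1 to 4 in adults on antibiotics, 0 to 1 for antibiotics in adolescents under morphine and 0 to 2 for age in antibiotics with saline. Every change of sign was in a value that was not called (smallest adjusted p 0.812). The Per2 interaction in adolescents became 0.01 with the block and 0 in the compared groups, and without single libraries ran from -0.13 to 0.12 (Per1 -0.17 to 0.07). Other ranges without single libraries that crossed 0 were, for antibiotics in adolescent saline, Per2 -0.18 to 0.06, Cry1 -0.09 to 0.02 and Ciart -0.03 to 0.18; in adult saline, Per2 -0.12 to 0.09, Per3 -0.13 to 0.03 and Cry1 -0.03 to 0.12; in adults under morphine, Per1 -0.07 to 0.03 and Per2 -0.02 to 0.09; for the adult interaction, Per2 -0.07 to 0.15, Cry2 -0.03 to 0.05 and Ciart -0.10 to 0.07; for morphine in adults on antibiotics, Per1 -0.10 to 0.02; for age, Per3 0 to 0.16 (water, saline), Per1 -0.03 to 0.07 and Per2 -0.01 to 0.15 (water, morphine) and Ciart -0.05 to 0.14 (antibiotics, morphine); and for the age difference of the morphine change on water, Per1 -0.17 to 0, Per3 -0.07 to 0.09, Cry1 -0.06 to 0.10 and Ciart -0.03 to 0.18. The depth leaves Cry1 and Ciart with the fewest counts, 100 to 233 and 97 to 286 per library.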
